A study of Mus musculus with 6 samples.

Results

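The 34 genes described here encode NRF2 and enzymes of the antioxidant systems that it helps to control: glutathione, thioredoxin with the peroxiredoxins, superoxide and peroxide removal, NADPH supply, and quinone and haem handling. They were chosen by symbol from a written list, with earlier results of these data known. All 34 were found among the 54532 gene identifiers measured. Expression was read by poly-A RNA sequencing in immortalised bone marrow-derived macrophages (iBMDM), mouse marrow macrophages that divide in culture. A short hairpin RNA against Pgam5 (shPGAM5) was used in 3 libraries and a short hairpin RNA against Dnm1l, the DRP1 gene (shDRP1), in the other 3. Both groups were treated with interleukin-4 (10 ng/ml, 24 h). No library without a hairpin, with a non-targeting hairpin or without interleukin-4 was analysed here. A gene that is higher in the PGAM5 knockdown is therefore equally one that is lower in the DRP1 knockdown, and these cannot be told apart. Words such as fell, rose or decrease below compare the PGAM5 knockdown with the DRP1 knockdown, not with cells without a knockdown. The labels do not say whether the numbers 1 to 3 stand for separate cultures or for different hairpins, and the spread that p-values rest on, that between these samples, may be technical.

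NRF2 is a transcription factor that the adaptor KEAP1 marks for destruction by a CUL3 ubiquitin ligase. Oxidants and electrophiles modify KEAP1, NRF2 then accumulates, pairs with small MAF proteins and binds antioxidant response elements near its target genes. PGAM5, the phosphatase knocked down in 3 libraries, sits in mitochondria and is known to bind KEAP1. Glutathione and thioredoxin are the main carriers of reducing power against peroxides, and both are kept reduced by NADPH. In macrophages NADPH also feeds the phagocyte oxidase, which makes superoxide.

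The depths that turn the deposited values into whole reads were 16111282 to 21933545 per library. The reads so recovered summed to more, 17030470 to 23272463, so these depths are estimates whose exact definition is unknown. Pgam5 stood at 4.60 to 5.21 FPKM (fragments per kilobase of exon, scaled to library depth) in its own knockdown and at 17.1 to 17.3 in the other. Dnm1l stood at 7.12 to 8.18 FPKM in the DRP1 knockdown and at 17.2 to 18.7 in the other, so each label showed in its targeted gene, although Gm26718, on the other strand, overlaps 58.1% of the exonic bases of Pgam5. Of 12 macrophage markers 11 were expressed above the filter, while 10 of 12 markers of the response to interleukin-4 stayed below 1 FPKM in every library, with Retnla and Chil3 at 0. In 8 marker lists for other cell types every gene but Ighm (mean 24.7 FPKM) and Lck (7.04) stayed below 1 FPKM in each library, and the defining markers Cd3e, Ly6g and Dcn were at 0. The summed FPKM of the macrophage markers was 4060 to 4240 in the PGAM5 knockdown and 5190 to 5220 in the DRP1 knockdown, with 6 of the 11 tested lower and 0 higher. Cd14, Lyz2 and Cd68 had the highest means of these markers, so the sum leans on them and does not count macrophages. All libraries were of iBMDM, and bulk RNA cannot tell fewer cells expressing these genes from less of their RNA per cell. The part of this difference in the marker sum in the results below was not tested. PGAM5 knockdown library 3 stood apart from its group, with a chi-square per gene of 8.05 and 5.61 against libraries 1 and 2, where the other pairs within groups gave 2.65 to 3.26. It was the highest of its group for 22 of the 32 tested antioxidant genes and for 41.8% of all genes tested. Transcripts of the mitochondrial genome took 0.868 to 0.883% of the summed FPKM in the PGAM5 knockdown and 1.19 to 1.23% in the DRP1 knockdown, without overlap, and the part of this in the results was not tested.

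Expression of 32 of the 34 genes reached a mean of 1 FPKM, and these were tested together with all 10634 genes at or above that level. Each difference is the mean log2(FPKM + 1) of the PGAM5 group minus that of the DRP1 group, folds are ratios of mean FPKM, and a call is an adjusted p under 0.05 with limma. Of the 32, 5 were higher in the PGAM5 knockdown (Me1, Hmox1, Gpx4, Prdx5 and Taldo1), 8 were lower (Nfe2l2, Gstm1, Cat, Txnrd1, Srxn1, Gclm, Gsto1 and Gsr) and 19 did not pass. Over all genes tested, 13.8% were called higher and 11.7% lower, 25.4% in all. Of these 32, 15.6% were called higher and 25% lower, 40.6% in all. The members and the related lists below were chosen with earlier results of these data known, so such shares are no test of a set. The median difference of the 32 was 0.01, beside 0.009 over all genes tested, since genes moved in opposite directions. The 2 groups of libraries did not overlap for 21 of the 32, 11 higher and 10 lower, where 43.5% of all genes tested did not overlap (23% higher and 20.5% lower). With 3 libraries a group an exact permutation test of a single gene cannot give a two-sided p below 0.1.

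**Figure D1:**
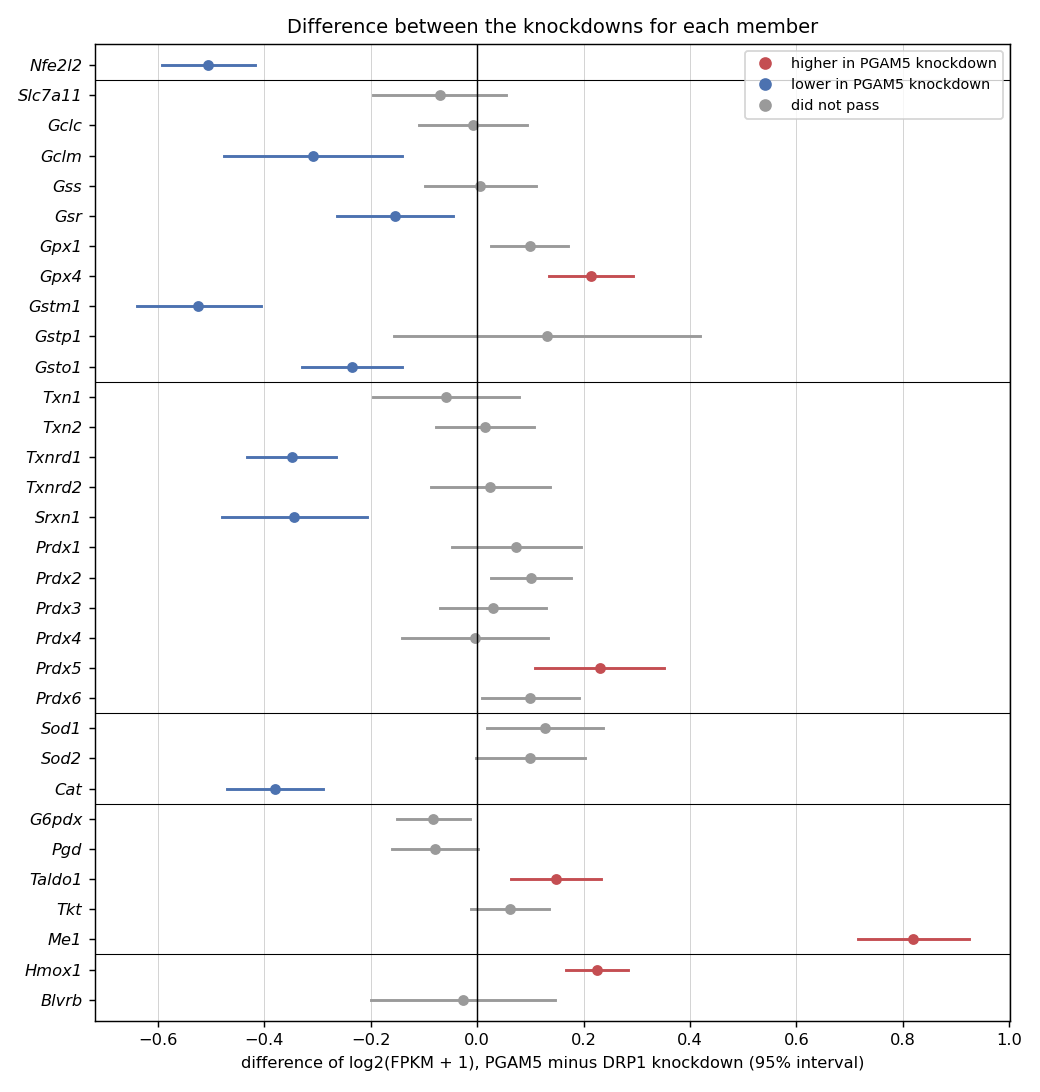
Difference of log2(FPKM + 1) between PGAM5 and DRP1 knockdown for the 32 antioxidant genes above the filter, with 95% intervals from the limma fit, grouped by role between the horizontal lines. Red points were called higher (5 genes), blue lower (8 genes), and grey did not pass (19 genes), with Me1 farthest to the right at 0.82 and Gstm1 farthest to the left at -0.52.

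Nfe2l2, the NRF2 gene itself (ENSMUSG00000015839, chromosome 2, 75675513 to 75704641, minus strand, mm10), was lower in the PGAM5 knockdown. It measured 33.0, 33.1 and 35.3 FPKM in PGAM5 knockdown libraries 1 to 3 and 47.8, 49.8 and 47.6 in the DRP1 knockdown libraries. Every PGAM5 knockdown library lay below every DRP1 knockdown library, with a gap several times the spread within groups. The means were 33.8 ± 1.27 and 48.4 ± 1.20 FPKM (SD, n = 3 libraries each), a 1.43-fold decrease (log2 difference -0.51, SE 0.037, limma adjusted p = 0.00015). Keap1 did not pass, at 7.21 ± 0.59 against 7.75 ± 0.66 FPKM, with an interval for the difference of -0.27 to 0.08.

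Antioxidant response elements share the core TGACNNNGC, which was searched on both strands in the 250 bases before each annotated start in RefSeq (build GRCm38.p6). Promoter windows were listed for 30 of the 34 genes, with Gclc, Gsr, Hmox1 and Prdx6 not among them. The core was found in 7 of these 30 genes (23.3%), and in 11.5% of the 27025 genes with a window. Counted by window, it was in 17.5% of the 40 windows of these genes and in 10.2% of all 32851. The letter before the core was left free, and bases farther upstream were not searched. The core in Prdx1 also holds TGACTCA, the site of AP-1 factors. A match is a run of letters, not a measured binding site. In Mgst1 and G6pdx the core lay inside a first exon annotated as untranslated in GENCODE M21, and in Nfe2l2 inside an exon of E030042O20Rik, a noncoding gene. Without Mgst1 and G6pdx, 5 stretches follow, read 5′ to 3′ on the strand that carries the core, with the core in capitals. Nfe2l2, Gclm and Txnrd1 fell, while Prdx1 and Sod1 did not pass, nor did G6pdx, which is not shown. Whether the spacer letters go with the direction was not tested.
Nfe2l2 chr2:75704879-75704913: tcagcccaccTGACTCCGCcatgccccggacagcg
Gclm chr3:122245407-122245447: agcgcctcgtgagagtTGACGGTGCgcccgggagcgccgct
Txnrd1 chr10:82859098-82859138: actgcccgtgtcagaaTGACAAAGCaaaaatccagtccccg
Prdx1 chr4:116685450-116685490: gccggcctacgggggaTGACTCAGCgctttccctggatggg
Sod1 chr16:90220690-90220730: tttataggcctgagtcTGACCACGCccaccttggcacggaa

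The core lay 240 to 232 bases before the start in Nfe2l2, 134 to 126 in Gclm and 92 to 84 in Txnrd1, where it belonged to the second of 3 listed starts. In Nfe2l2 it ran in the sense of the gene and in the other 6 against it. The whole 250 bases before the start are shown, in the sense of the gene, for Nfe2l2 and Gclm, genes with a core whose transcripts were lower in the PGAM5 knockdown. Capitals again mark the core, which in Gclm is read on the other strand.
Nfe2l2 chr2:75704664-75704913: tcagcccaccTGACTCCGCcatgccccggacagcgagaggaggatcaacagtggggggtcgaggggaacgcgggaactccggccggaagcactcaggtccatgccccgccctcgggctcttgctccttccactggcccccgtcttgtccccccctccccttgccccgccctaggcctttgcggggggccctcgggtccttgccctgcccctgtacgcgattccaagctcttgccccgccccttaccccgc
Gclm chr3:122245307-122245556: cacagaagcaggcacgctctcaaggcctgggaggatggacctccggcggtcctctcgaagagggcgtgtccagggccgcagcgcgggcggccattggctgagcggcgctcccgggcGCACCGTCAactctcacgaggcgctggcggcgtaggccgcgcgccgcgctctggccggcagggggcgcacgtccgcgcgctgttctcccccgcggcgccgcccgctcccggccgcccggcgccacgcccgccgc

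Glutathione genes moved both ways. Of the 11, 1 was higher, 4 were lower, 5 did not pass and Mgst1 lay below the filter, with a median difference of -0.04 over the 10 tested. Of those 10, 10% were called higher and 40% lower, beside 13.8% and 11.7% of all genes tested. The summed FPKM of the 11 was 424 to 450 in the PGAM5 knockdown and 415 to 423 in the DRP1 knockdown, a sum carried by Gpx1 and Gpx4.

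Synthesis of glutathione starts with cystine, which the transporter encoded by Slc7a11 brings into the cell. Slc7a11 measured 6.26 to 7.14 FPKM in the PGAM5 knockdown and 7.04 to 7.32 in the DRP1 knockdown and did not pass. Glutamate-cysteine ligase, the rate-limiting enzyme, has a catalytic subunit (Gclc) and a modifier subunit (Gclm). Gclc measured 19.4 ± 0.20 against 19.5 ± 1.03 FPKM and did not pass, with an interval for the difference of -0.11 to 0.09. Gclm (chromosome 3, 122245557 to 122270732, plus strand) stood at 5.31, 5.33 and 4.68 FPKM in the PGAM5 knockdown and at 6.11, 7.19 and 6.38 in the DRP1 knockdown. It fell 1.29-fold (log2 difference -0.31, SE 0.071, limma adjusted p = 0.018), and the groups did not overlap. That call was lost without DRP1 knockdown library 2 and without the expression filter, in a range of 0.0022 to 0.058 over 14 alternatives. Gss, the gene of glutathione synthetase, which adds glycine, measured 5.68 to 6.06 FPKM over all 6 libraries, with the groups overlapping, and genes on the other strand overlap 15.4% of its exonic bases.

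Glutathione reductase, encoded by Gsr, returns oxidised glutathione to its reduced form with NADPH. Gsr (chromosome 8, 33652523 to 33698163, plus strand) measured 11.7, 11.5 and 10.6 FPKM in the PGAM5 knockdown against 12.96, 12.6 and 12.3, 1.12-fold lower (a log2 difference of -0.15 with SE 0.046, limma adjusted p = 0.048). Although the groups did not overlap, the call rested near the threshold and was lost in 9 of 14 alternatives, including those that left out library 2 or 3 of the PGAM5 group or any 1 of the DRP1 group, the highest adjusted p being 0.15.

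Glutathione peroxidases and transferases use glutathione. Gpx1, the cytosolic peroxidase and the most abundant of all 34 genes, measured 179, 176 and 186 FPKM against 167, 172 and 166. Its groups did not overlap, but it did not pass (log2 difference 0.10, interval 0.03 to 0.17, limma adjusted p = 0.054), and it passed when only genes of at least 5 FPKM were tested and under quantile normalization (lowest adjusted p 0.043). Gpx4, the peroxidase that repairs lipid peroxides in membranes (chromosome 10, 80047166 to 80056439, plus strand), stood at 142, 139 and 149 FPKM against 125, 124 and 121. With PGAM5 knocked down it stood 1.16-fold higher, by 0.21 on the log2 scale (SE 0.033, limma adjusted p = 0.004). A pseudogene, Gpx4-ps2, matched 73.7% of the longest Gpx4 transcript and was itself listed at 54.0 to 56.3 FPKM against 46.1 to 47.1, so reads of the 2 cannot be fully told apart.

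Among the transferases, which join glutathione to reactive molecules, Gstm1 was among the genes that fell most, close to Nfe2l2. Gstm1 (chromosome 3, 108012255 to 108017973, minus strand) measured 10.5, 9.36 and 10.5 FPKM in the PGAM5 knockdown and 15.0, 14.7 and 15.1 in the DRP1 knockdown. All PGAM5 knockdown values lay more than 4 FPKM below the lowest of the other group, and the gene was 1.48-fold lower (a log2 difference of -0.52 with SE 0.05, limma adjusted p = 0.00045). A pseudogene, Gstm2-ps1, matched 51% of the longest Gstm1 transcript and was listed at no more than 1.23 FPKM. Gsto1, of the omega class (chromosome 19, 47854970 to 47864790, plus strand), was 1.18-fold lower, at 43.4, 43.0 and 46.9 FPKM against 52.1, 53.5 and 51.7 (log2 difference -0.24, SE 0.04, limma adjusted p = 0.0053). Gstp1, of the pi class, had the largest standard error of the 32 genes tested (0.123), at 7.36 to 10.8 FPKM in the PGAM5 knockdown and 7.77 to 9.09 in the DRP1 knockdown, and did not pass. Other genes matched 86.1% of the longest Gstp1 transcript. Mgst1, a membrane-bound transferase, had at most 2 reads in any library.

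**Figure D2:**
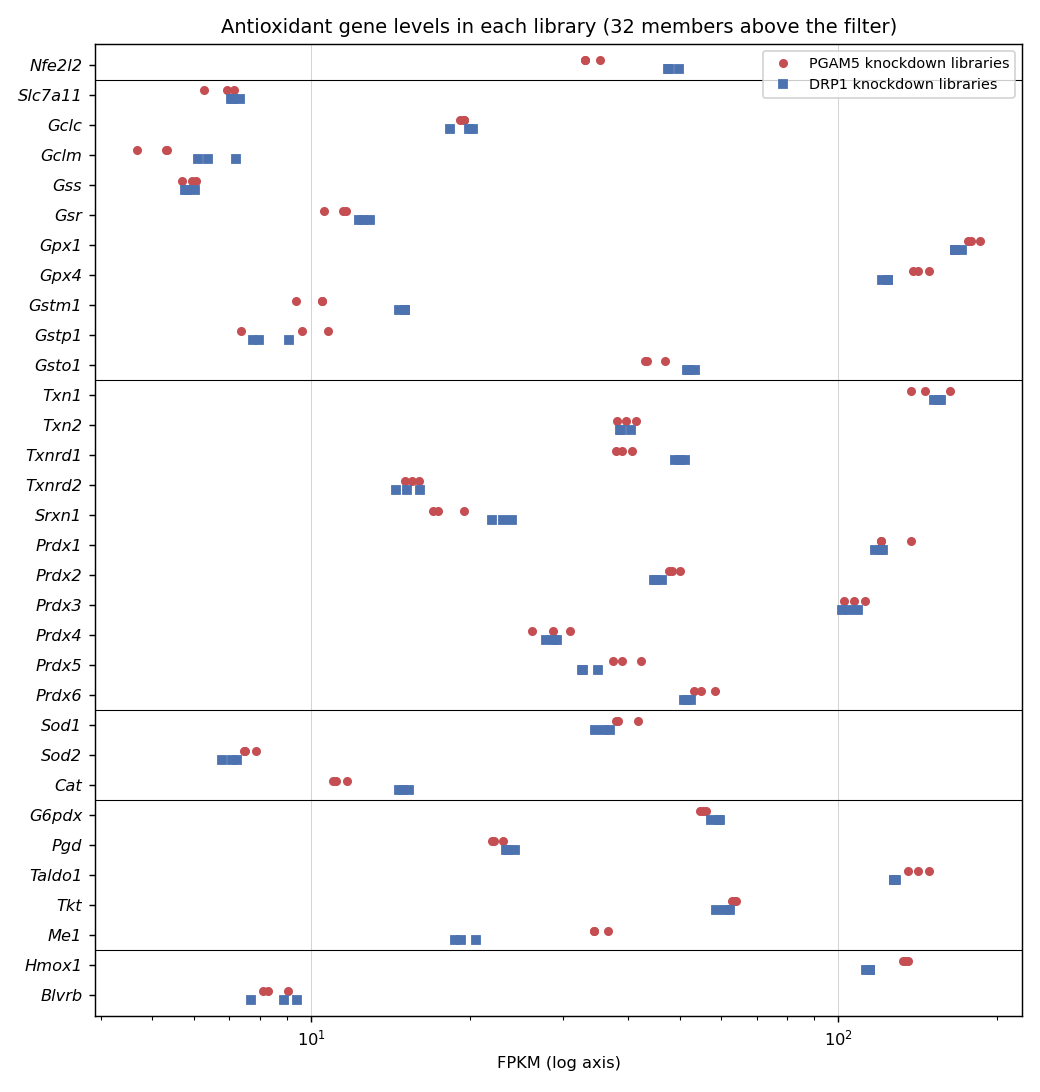
FPKM of the 32 antioxidant genes above the filter in each library, on a log axis, with red circles for the 3 PGAM5 knockdown and blue squares for the 3 DRP1 knockdown libraries, ordered by role between the horizontal lines. Levels run from Gclm near 5 FPKM to Gpx1 near 180 FPKM. The groups do not overlap for 21 of the 32, among them Nfe2l2, Gstm1, Txnrd1, Srxn1, Cat and Me1.

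Of the 11 thioredoxin and peroxiredoxin genes, all tested, 1 was higher, 2 were lower and 8 did not pass (median difference 0.03). That is 27.3% called, near the 25.4% of all genes tested, and their summed FPKM was 645 to 708 in the PGAM5 knockdown and 661 to 669 in the DRP1 knockdown. Both that fell act in the cytosol on oxidised partners of the pathway: Txnrd1, the thioredoxin reductase that draws on NADPH, and Srxn1, sulfiredoxin, which repairs over-oxidised peroxiredoxins. Txnrd1 (chromosome 10, 82833951 to 82897712, plus strand) measured 40.7, 37.9 and 38.9 FPKM against 50.1, 51.3 and 49.0. The groups lay more than 8 FPKM apart, a 1.28-fold decrease (log2 difference -0.35, SE 0.036, limma adjusted p = 0.00063). Srxn1 (chromosome 2, 152105516 to 152111376, plus strand) measured 19.5, 17.4 and 17.1 FPKM against 22.01, 24.04 and 23.1, likewise 1.28-fold lower with no overlap (log2 difference -0.34, SE 0.058, limma adjusted p = 0.0053).

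Thioredoxin itself did not pass. Txn1, the cytosolic form and the most abundant gene of the group, measured 138, 146 and 163 FPKM in the PGAM5 knockdown and 157, 152 and 155 in the DRP1 knockdown. Library 3 of the PGAM5 knockdown was the highest of all 6, and libraries 1 and 2 the lowest. Without that library Txn1 was called lower (log2 difference -0.13, limma adjusted p = 0.032), the highest of its 14 alternatives being 0.96. The mitochondrial forms overlapped between the groups, with Txn2 at 38.0 to 41.3 against 38.5 to 40.4 FPKM and Txnrd2 at 15.05 to 16.03 against 14.5 to 16.1. The interval for the difference was -0.08 to 0.11 for Txn2 and -0.09 to 0.14 for Txnrd2.

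Peroxiredoxins are the abundant peroxidases that thioredoxin reduces. Prdx5, found in mitochondria, peroxisomes and cytosol (chromosome 19, 6906697 to 6910106, minus strand), measured 38.8, 37.4 and 42.3 FPKM against 32.9, 35.0 and 32.6, 1.18-fold higher (log2 difference 0.23, SE 0.052, limma adjusted p = 0.017). That call was lost without DRP1 knockdown library 1 or 3, in a range of 0.0052 to 0.063 over 14 alternatives. Trmt112, on the opposite strand, overlaps 19.1% of the exonic bases of Prdx5, and with no strand setting given their reads cannot be told apart there. Prdx2 (48.7 ± 1.26 against 45.4 ± 0.87 FPKM) and Prdx6 (55.5 ± 2.61 against 51.7 ± 0.82) did not overlap between groups and did not pass, at limma adjusted p of 0.056 and 0.10. Junb and Rnaseh2a overlap 11.5% of Prdx2 on the other strand, and Prdx2 passed when only genes of at least 5 FPKM were tested (0.049). Prdx1 (126 ± 9.50 against 120 ± 2.05 FPKM), the mitochondrial Prdx3 (107 ± 5.00 against 105 ± 3.65) and the endoplasmic reticulum form Prdx4 (28.7 ± 2.38 against 28.7 ± 0.73) overlapped and did not pass. In all of Prdx1 to Prdx6, PGAM5 knockdown library 3 was the highest of its group.

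Selenocysteine, an amino acid read from a UGA codon, is annotated in 4 of the 34 genes, which spans both the glutathione and the thioredoxin system. Stretches of their coding sequences are shown 5′ to 3′ as DNA letters from the GENCODE M21 transcripts, with the codon in capitals, since the codon's place differs between the families.
Gpx1: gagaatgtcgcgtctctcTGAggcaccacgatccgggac
Gpx4: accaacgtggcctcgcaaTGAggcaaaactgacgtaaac
Txnrd1: atcctccagtctggctgcTGAggt
Txnrd2: cctactgtgactggttgcTGAggc

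In the longest annotated coding sequences the codon was number 47 of 201 in Gpx1 and 129 of 253 in Gpx4, and the last but 1 in Txnrd1 (612 of 613) and Txnrd2 (526 of 527). These 4 genes differed in direction: Gpx4 rose, Txnrd1 fell, and Gpx1 (log2 difference 0.10) and Txnrd2 (0.03) did not pass.

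Of the 3 genes that remove superoxide and hydrogen peroxide, catalase was lower and both superoxide dismutases did not pass (33.3% called, beside 25.4% of all genes tested). Cat, the gene of the peroxisomal catalase (chromosome 2, 103453849 to 103485160, minus strand), measured 11.7, 11.02 and 11.1 FPKM in the PGAM5 knockdown and 15.3, 14.7 and 14.9 in the DRP1 knockdown. The spread within groups was small beside the gap, and the gene was 1.33-fold lower (a log2 difference of -0.38 with SE 0.039, limma adjusted p = 0.00061). Sod1, the cytosolic dismutase, measured 38.2, 37.8 and 41.7 FPKM against 36.0, 36.8 and 34.5, with no overlap and a limma adjusted p of 0.084. Sod2, the mitochondrial one, measured 7.60 ± 0.22 against 7.03 ± 0.23 FPKM, also with no overlap (limma adjusted p = 0.14).

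**Figure D3:**
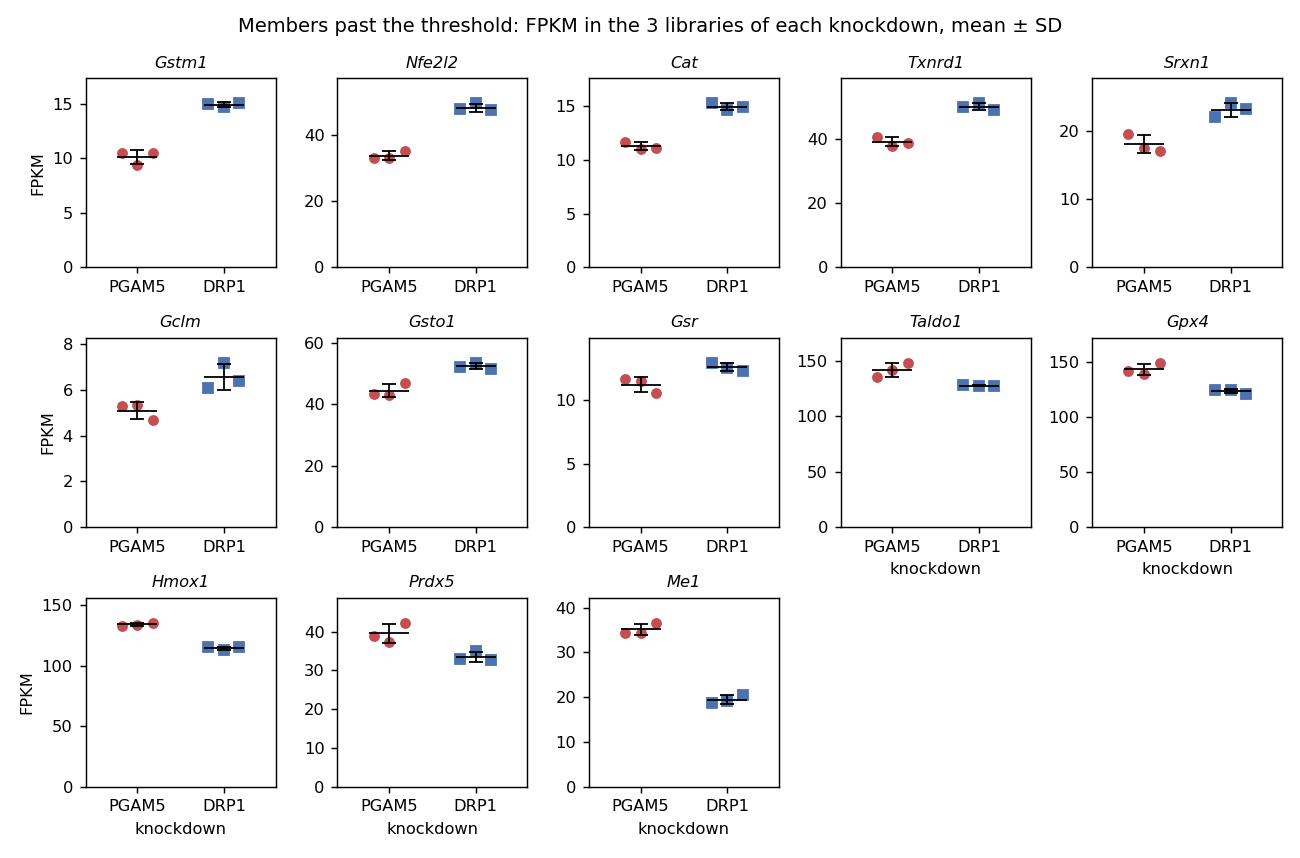
FPKM of the 13 antioxidant genes past the threshold in the 3 libraries of each knockdown (points), with mean and SD (bars), axes from 0, in order of the difference. In each panel all 3 PGAM5 knockdown libraries lie on 1 side of the 3 DRP1 knockdown libraries, below them in the first 8 panels and above in the last 5.

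NADPH supply held the largest difference among the 32 genes tested. Me1, the cytosolic malic enzyme, makes NADPH while turning malate into pyruvate (chromosome 9, 86581371 to 86695953, minus strand). It measured 34.4, 34.5 and 36.6 FPKM in the PGAM5 knockdown and 18.7, 19.2 and 20.5 in the DRP1 knockdown, 1.80-fold higher (log2 difference 0.82, SE 0.045, limma adjusted p = 4.2e-05). The lowest PGAM5 knockdown library stood well above the highest of the other group. Pseudogenes matched 60.1% of the longest Me1 transcript, and none of the 3 was listed above 0.30 FPKM in any library.

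The pentose phosphate pathway is the other main cytosolic source of NADPH. Neither gene of its oxidative arm, where NADPH is made, passed: G6pdx measured 55.5 ± 0.78 against 58.8 ± 1.27 FPKM (limma adjusted p = 0.081) and Pgd 22.4 ± 0.57 against 23.8 ± 0.52 (0.13). Under quantile normalization G6pdx was called lower (0.037). Ikbkg, on the other strand, overlaps 13.6% of the exonic bases of G6pdx. Of the non-oxidative arm, which rearranges sugars, Taldo1 (transaldolase, chromosome 7, 141392199 to 141402968, plus strand) measured 136, 142 and 149 FPKM against 129, 128 and 128, 1.11-fold higher (log2 difference 0.15, SE 0.036, limma adjusted p = 0.022). Its call was lost in 7 of 14 alternatives, among them those without PGAM5 knockdown library 2 or any 1 of the DRP1 knockdown libraries, in a range of 0.0095 to 0.076. Tkt, transketolase, measured 62.8 to 63.9 against 58.6 to 62.3 FPKM, without overlap, and did not pass. None of the 5 genes overlapped between groups, Me1, Taldo1 and Tkt being higher and G6pdx and Pgd lower. Of all genes tested 43.5% did not overlap, and Tkt, G6pdx and Pgd did not pass.

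Quinone and haem genes hold 2 of the best known NRF2 targets. Nqo1, the quinone reductase, was near 0, with 1 to 6 reads and 0.0294 to 0.211 FPKM in each library, and was not tested. Hmox1, haem oxygenase 1, which opens the haem ring and releases iron, was abundant (chromosome 8, 75093621 to 75100589, plus strand). It measured 133, 134 and 135 FPKM in the PGAM5 knockdown and 115, 113 and 115 in the DRP1 knockdown, with a very small spread in both. Hmox1 was 1.17-fold higher (log2 difference 0.23, SE 0.025, limma adjusted p = 0.00084), opposite in direction to Nfe2l2. Blvrb, a biliverdin reductase that acts after haem oxygenase, overlapped between groups at 8.11 to 9.03 against 7.70 to 9.42 FPKM.

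Of 118 other genes of these pathways, kept in 6 written lists, 81 were tested, with 15 higher, 15 lower and 51 that did not pass, 18.5% in each direction beside 13.8% and 11.7% of all genes tested. Among 13 genes that control NRF2, 3 were higher (23.1%) and 2 lower (15.4%), beside the same 13.8% and 11.7% of all genes tested. Maff, a small MAF partner of NRF2, had the largest difference (9.68, 9.78 and 9.85 against 5.67, 6.997 and 6.19 FPKM, log2 difference 0.57, limma adjusted p = 0.0012). Park7, which encodes the redox protein DJ-1 (0.27), and Cul3, the scaffold of the KEAP1 ligase (0.21), were also higher. The 2 lower, named after their values were seen, were Gsk3b and Sqstm1. Gsk3b measured 15.3 ± 0.60 against 17.4 ± 0.19 FPKM (-0.18), and its call was lost without DRP1 knockdown library 1 or 3. Sqstm1 measured 1802 ± 30.7 against 2000 ± 5.7 FPKM (-0.15), and its call was lost without the filter.

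Of the phagocyte oxidase, which spends NADPH, 7 of 13 genes were tested, with 0 higher and 3 lower (42.9%, beside 11.7% of all genes tested). Cybb, the membrane-bound catalytic subunit of the oxidase, was 1.71-fold lower, at 27.9, 29.8 and 27.3 FPKM against 47.3, 49.98 and 47.6 (log2 difference -0.75, SE 0.042, limma adjusted p = 4.7e-05). The cytosolic subunits Ncf4 (log2 difference -0.23) and Ncf1 (-0.11) were lower too, the latter call being lost in 6 of 14 alternatives, among them those without PGAM5 knockdown library 2 or any 1 of the DRP1 knockdown libraries (adjusted p of up to 0.10). Cyba, Rac1 and Rac2 did not pass, although Cyba was called lower under quantile normalization and without PGAM5 knockdown library 3 (lowest adjusted p 0.033). These genes are active in mature phagocytes. The macrophage marker sum given above was also lower in the PGAM5 knockdown, and any link between them was not tested.

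Other NADPH genes split, with 4 of 13 tested higher (30.8%) and 3 lower (23.1%), beside 13.8% and 11.7% of all genes tested. The 3 of these 13 with the largest differences act in mitochondria. Nadk2, an NAD kinase, measured 6.94 ± 0.61 against 4.80 ± 0.36 FPKM (log2 difference 0.45). Me2, a mitochondrial malic enzyme, measured 72.4 ± 0.08 against 54.0 ± 1.28 (0.42). Idh2, the NADP-dependent isocitrate dehydrogenase, measured 76.3 ± 3.58 against 59.7 ± 1.34 (0.35). The coenzyme that Me2 uses was not examined, so its place in this list does not show that it supplies NADPH. Me3, of the same list, lay below the filter. H6pd (-0.32), Idh1 (-0.29) and Mthfd1 (-0.23) were the ones that fell, named after their values were seen. The Mthfd1 call was lost in 5 of 14 alternatives: no filter, or leaving out libraries 1 or 2 of the PGAM5 group or 1 or 3 of the DRP1 group (adjusted p of up to 0.093). Among 16 tested of the other NRF2 targets 3 were higher and 3 lower (18.8% each, beside the same 13.8% and 11.7%). Slc48a1, a haem transporter of lysosomes, fell 1.67-fold (9.09 ± 0.41 against 15.2 ± 0.11 FPKM, log2 difference -0.68, limma adjusted p = 6.3e-05) and Ftl1, the ferritin light chain, 1.31-fold, with the whole Ftl1 transcript matched by other genes. Ephx1, an epoxide hydrolase, was higher (0.32). Of 13 alternatives that could test Ephx1, 5 lost the call: no filter, or leaving out libraries 2 or 3 of the PGAM5 group or 1 or 3 of the DRP1 group (adjusted p of up to 0.12).

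Among 18 tested of the other glutathione genes, 3 were higher and 2 lower, 27.8% called, near the 25.4% of all genes tested. Esd, an esterase that frees glutathione from its formyl adduct, fell (39.8 ± 3.02 against 49.9 ± 0.74 FPKM, log2 difference -0.32), and the transferase genes Gstt3 (0.32) and Mgst3 (0.29) were higher. Gstt3 lost its call in 4 of 13 alternatives, without PGAM5 knockdown library 1, DRP1 knockdown library 1 or 2, and with the replicate block (adjusted p of up to 0.058). Of 14 tested genes on thioredoxin and protein repair, 2 were higher and 2 lower, 28.6% called, likewise near 25.4%. Msrb1, a methionine sulfoxide reductase, fell by 0.39 on the log2 scale (30.9 ± 0.65 against 40.8 ± 0.89 FPKM, limma adjusted p = 0.00025), as did Txnrd3 (-0.27), while Txnl1 rose (0.19). Txnrd3 lost its call in 5 alternatives, without PGAM5 knockdown library 2, any 1 of the DRP1 knockdown libraries or the filter, and Txnl1 in 1, without DRP1 knockdown library 2 (adjusted p of up to 0.071 and 0.054).

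**Figure D4:**
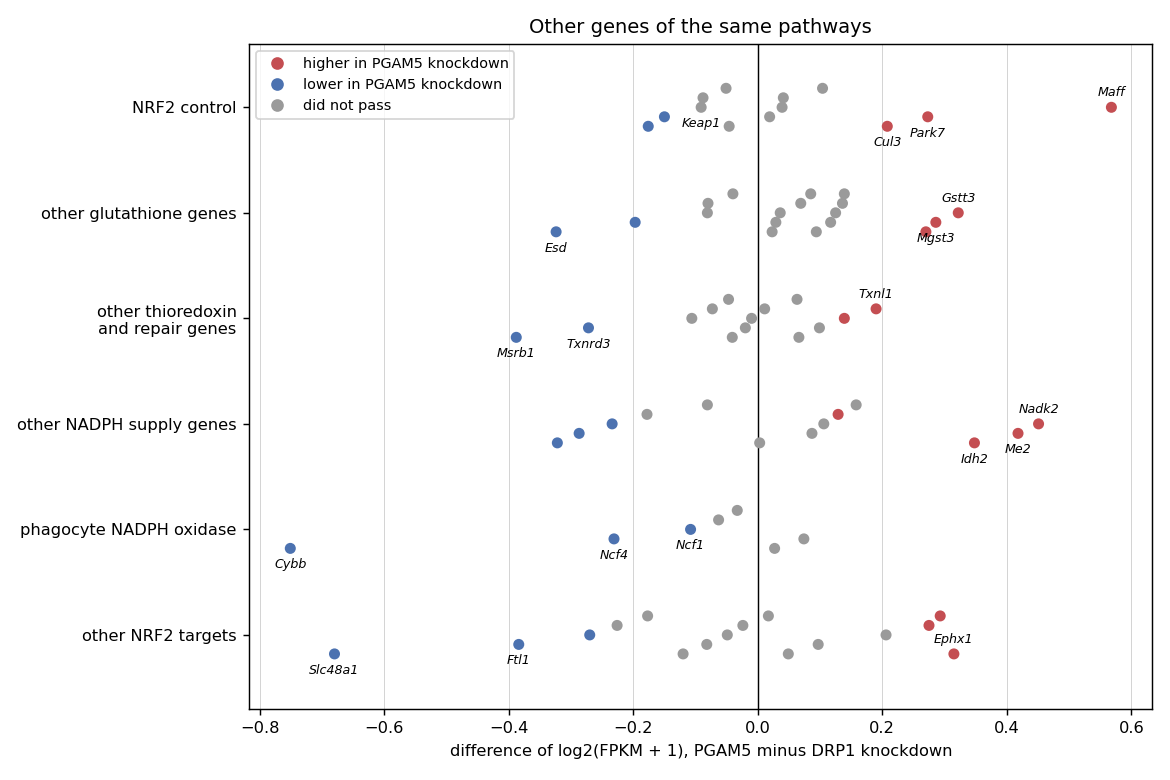
Difference of log2(FPKM + 1), PGAM5 minus DRP1 knockdown, for the 81 tested genes of 6 related lists (1 point per gene, spread vertically only for legibility), red for higher, blue for lower and grey for not passed. Cybb at -0.75 and Slc48a1 at -0.68 lie farthest to the left, and Maff at 0.57 farthest to the right.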

How the data were processed

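Gene expression was measured by poly-A RNA sequencing in 6 libraries, 3 per knockdown, grouped by sample title. The deposited values are FPKM, computed by the authors, 1 per gene and library for 54532 Ensembl identifiers. HISAT2 2.0.5, featureCounts 1.5.0-p3 and the mouse build mm10 are named, without their roles, per the submitters' processing notes. Annotation release, strand setting and FPKM formula: not given in the sources used here. Symbols, positions and exonic lengths came from GENCODE M21 on that build, and 54495 identifiers matched. Multiplying FPKM by length and a depth fitted to each library gave whole reads, to within 0.02, for 96.1% of values above 0, and so the depths.

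Genes with a mean of at least 1 FPKM entered a limma 3.58.1 fit (R 4.3.3) of log2(FPKM + 1) (empirical Bayes with trend, two-sided) with Benjamini-Hochberg adjustment over all 10634 genes and a threshold of 0.05. The + 1 understates changes of low genes. Near-identical transcripts were searched with blastn 2.17.0 at 97% identity over at least 100 bases. There were 14 alternatives: pseudocount 0.1, no filter or 5 FPKM, quantile and median scaling, no trend, voom on recovered reads, a replicate block, and leaving out each library. The members and lists were chosen with earlier results of these data known. By rule, Nfe2l2, members past the threshold and the most abundant member per role are given by library, and up to 3 called genes per other list are named.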

Additional observations from a re-analysis of the deposited data

How the results depend on the processing

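Of the 13 antioxidant genes called, Nfe2l2, Gstm1, Cat, Txnrd1, Srxn1, Gsto1, Me1, Hmox1 and Gpx4 kept their direction and call in all 14 alternatives. Leaving out each library in turn gave 3 to 5 genes called higher (3 without DRP1 knockdown library 1 or 3) and 6 to 8 called lower, and over all genes 980 to 1456 higher and 819 to 1287 lower (822 and 819 without DRP1 knockdown library 2 and 3). The same-numbered libraries did not deviate from their group means together (correlations of at most 0.031), nor did every library correlate best with its own number, so the numbers were not taken as pairs. With the replicate block 4 of the genes were called higher and 7 lower, Gsr and Taldo1 being lost, beside 1161 and 972 of all genes. Some genes that did not pass, with differences near 0, changed sign. Over the libraries left out, differences ranged from -0.049 to 0.02 for Gclc, -0.011 to 0.028 for Gss, -0.016 to 0.042 for Txn2, -0.01 to 0.063 for Txnrd2, -0.003 to 0.063 for Prdx3, -0.06 to 0.056 for Prdx4 and -0.1 to 0.03 for Blvrb. Median rescaling gave -0.007 for Gss and -0.001 for Txn2, voom -0.008 for Gss, and quantile normalization -0.002 for Txn2 and -0.015 for Prdx3. No scaling moved the median of all genes by over 0.1. The causes of these shifts were not tested. Nqo1 and Mgst1 had at most 6 reads in any library and lay below the filter of the main fit.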

Other observations

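The ratio of partner genes within a library does not depend on that library's scaling. 3 such ratios of FPKM were chosen after the values were seen. The modifier to catalytic subunit ratio of glutamate-cysteine ligase (Gclm to Gclc) was 0.272, 0.278 and 0.24 with PGAM5 knocked down, against 0.301, 0.392 and 0.321 with DRP1 knocked down. The cytosolic to mitochondrial thioredoxin reductase ratio (Txnrd1 to Txnrd2) was 2.7, 2.44 and 2.43 against 3.29, 3.55 and 3.04. The ratio of Taldo1 to G6pdx, from the non-oxidative and oxidative arms of the pentose phosphate pathway, was 2.49, 2.52 and 2.68 against 2.25, 2.15 and 2.14. In each ratio the groups did not overlap. The exact two-sided permutation p was 0.1 for all 3 (0.1 adjusted over the 3), the smallest that 3 libraries against 3 can give. Since the ratios were chosen with the values seen, their separation and these p-values are no test. With PGAM5 knocked down Taldo1 lay wholly above and G6pdx wholly below the other group, so their ratio could not overlap.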
